A study of Mus musculus with 9 samples.

Results

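The subject here is a block of 3000 nt on the plus strand of mouse chromosome 17, chr17:39983001-39986000 in build mm9, that collected HITS-CLIP tags in every library. Its members are the 5650 tags of the genomic tag lists whose middle lay between these bounds, out of 321854 genomic tags in 9 libraries. On the minus strand the same bounds held 1 tag. In HITS-CLIP, RNA is crosslinked with ultraviolet light to the proteins bound to it, 1 protein is immunoprecipitated, and the short pieces of attached RNA are sequenced as tags. The tags came from polyribosomes of FVB mouse brain, taken from cortex and cerebellum without white matter, with littermates pooled per the series text.

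FMRP, an RNA-binding protein whose loss causes fragile X syndrome, was precipitated in 7 libraries. The mixed monoclonal antibodies 7G1-1 and 2F5 gave 3 of them, at postnatal days 14, 15 and 25 (P14, P15 and P25). The polyclonal antibody ab17722 gave 2 at P14 and P25, and these 5 libraries were dissociated in 1% SDS and sequenced on the 454 platform. The same polyclonal antibody gave 2 more at P11 and P13, dissociated in 2% SDS and sequenced on Illumina. The neuronal Hu proteins, which bind mRNA and also sit on polyribosomes, were precipitated with a human antiserum in 2 libraries, from the other part of the P11 and P13 lysates and with the same protocol. Protocol, platform and age changed together, since all 454 libraries are of P14 to P25 and all Illumina libraries of P11 or P13, and cannot be told apart. Below, 454 and Illumina stand for all 3. Tags from Fmr1-null littermates, which the series text mentions for most experiments, were not analysed here, so no background without FMRP stands beside the values. Within a group the libraries are of unlike ages, and each library is a pool, so a p-value measures the spread between these libraries.

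Ribosomal RNA forms the core of both ribosomal subunits and is the most abundant RNA of a polyribosome. Its genes stand in long tandem arrays that are largely missing from assembled genomes, so a read of ribosomal RNA can be placed only where an assembly holds a related copy. The name of the block was checked as far as gene tables allow. The authors' table has no gene inside the block and places Olfr136 and Pgk2, an olfactory receptor gene and a testis-specific glycolytic gene, as its nearest neighbours, 1510 kb before and 358 kb after it. Between the same neighbours, RefSeq (GRCm38.p6) lists 14 genes, of which 1 has a ribosomal RNA name: Rn18s-rs5, a pseudogene related to the RNA of the small subunit. Its length is 1849 nt, and the Illumina tags of the block spanned 1785 nt, chr17:39983370-39985154. A genome of build mm9 was not used here, so the likeness to ribosomal RNA rests on this name, order and length. No sequence is printed, and whether reads could be placed uniquely at each position was not tested.

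Libraries held 7439 to 12153 genomic tags on 454 and 43593 to 98832 on Illumina. Of 5 neuronal marker genes (Camk2a, Dlg4, Map1b, Snap25 and Syt1), 4 had transcript tags in every library, 16 to 539 in all, against 0 to 4 tags on 5 liver genes. The 454 lists hold at most 1 tag per start and end, so the deepest positions are flattened there. The Illumina lists repeat placements under different tag names.

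With every tag counted, the block took 2.21% to 3.48% of the tags in FMRP libraries and at most 0.315% with Hu, and both the likeness of the FMRP libraries and the distance to Hu depended on counting every tag. It held 209, 282 and 306 tags in the monoclonal libraries at P14, P15 and P25, which is 2.81%, 2.58% and 2.52% of their genomic tags. In the polyclonal 454 libraries it held 241 tags (2.21%) at P14 and 324 (3.03%) at P25. On Illumina it held 1517 tags (3.48%, 95% Wilson interval 3.31 to 3.66) at P11 and 2341 (3.43%, 3.30 to 3.57) at P13 with FMRP. With Hu it held 186 tags (0.315%, 0.273 to 0.363) at P11 and 244 (0.247%, 0.218 to 0.280) at P13. The mean was 2.87% ± 0.477 (SD, n = 7) for FMRP and 0.281% ± 0.0479 (SD, n = 2) for Hu, and the ranges did not overlap. With 1 tag kept per start position the mean was 1.38% and 1.42% for the monoclonal and polyclonal antibodies on 454, but 0.791% ± 0.0186 for FMRP and 0.176% ± 0.0356 for Hu on Illumina (SD, n = 2 each). On Illumina the ratio of the FMRP mean over the Hu mean was then 4.50, against 12.3 with every tag. These intervals cover counting error only. The totals are what the block was chosen on and are given as a description.

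**Figure D1:**
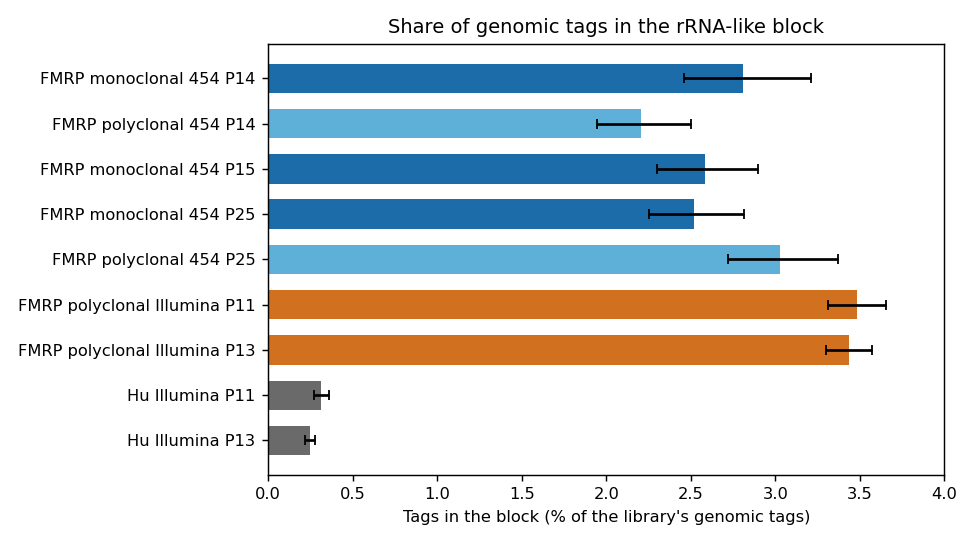
Share of each library's genomic tags that lay in the block, in percent, with bars in 4 colours for the 4 groups and whiskers for the 95% Wilson interval. The 7 FMRP libraries lie between 2.21% and 3.48%, and the 2 Hu libraries at 0.315% and 0.247%.

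Within each lysate the share with FMRP was 11.1 times that with Hu at P11 and 13.9 times at P13. Mitochondrial RNA, another abundant class, moved the same way: it took 0.298% of the FMRP tags and 0.0338% of the Hu tags at P11, a ratio of 8.81, and 1.27% against 0.197% at P13, a ratio of 6.45. With mitochondrial tags left out of the totals, the FMRP mean share of the block over the Hu mean was 12.4, against 12.3 with them. Whether both classes share a cause was not tested. Among all strand-specific windows of 1 kb, the middle one of the block, chr17:39984001-39985000, held the most tags in all 7 FMRP libraries. With Hu it ranked 2 at P11 and 11 at P13. The first one, chr17:39983001-39984000, ranked between 2 and 4 with FMRP, and 43 and 94 with Hu.

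In the fit of FMRP against Hu on windows of 1 kb, the log2 ratios of FMRP over Hu were 4.93 (SE 1.75), 3.97 (SE 1.51) and 3.12 (SE 1.96) for the first, middle and last window of the block (n = 2 libraries per protein). In edgeR's quasi-likelihood fit 0 of the 3 were called, 2 had an unadjusted p under 0.05, and 9.43% of all 541 windows were called. These values carry the same contrast as the totals on which the block was chosen, so nothing is read from the count. The balance of calls over all windows moved with the scaling: the 51 calls were all higher in FMRP, against 110 higher and 81 lower with library totals (35.3% called), 55 and 13 with DESeq2's size factors (12.6%), and 101 and 55 in DESeq2's own test (28.8%). In the block the count ran from 0 to 3 over the settings tried, and it was 0 without either Hu library and with the lysate as a replicate block.

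Along the block the tags fell into a few narrow peaks. Tags lay in 21 of the 30 windows of 100 nt, and none lay in the windows 100, 200 and 300 nt from the start of the block. A peak window is one with at least 2 times the mean number of tags per window of its library. The window chr17:39984401-39984500, 1400 nt into the block, was a peak in 9 of 9 libraries, and chr17:39984101-39984200, 1100 nt into it, in 8. The window 1700 nt in was a peak in 7 libraries, that 800 nt in in 6, and those 400 and 1800 nt in in 5 each. Libraries had 4 or 6 peaks, which held 58.2% to 83.0% of their tags in the block.

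**Figure D2:**
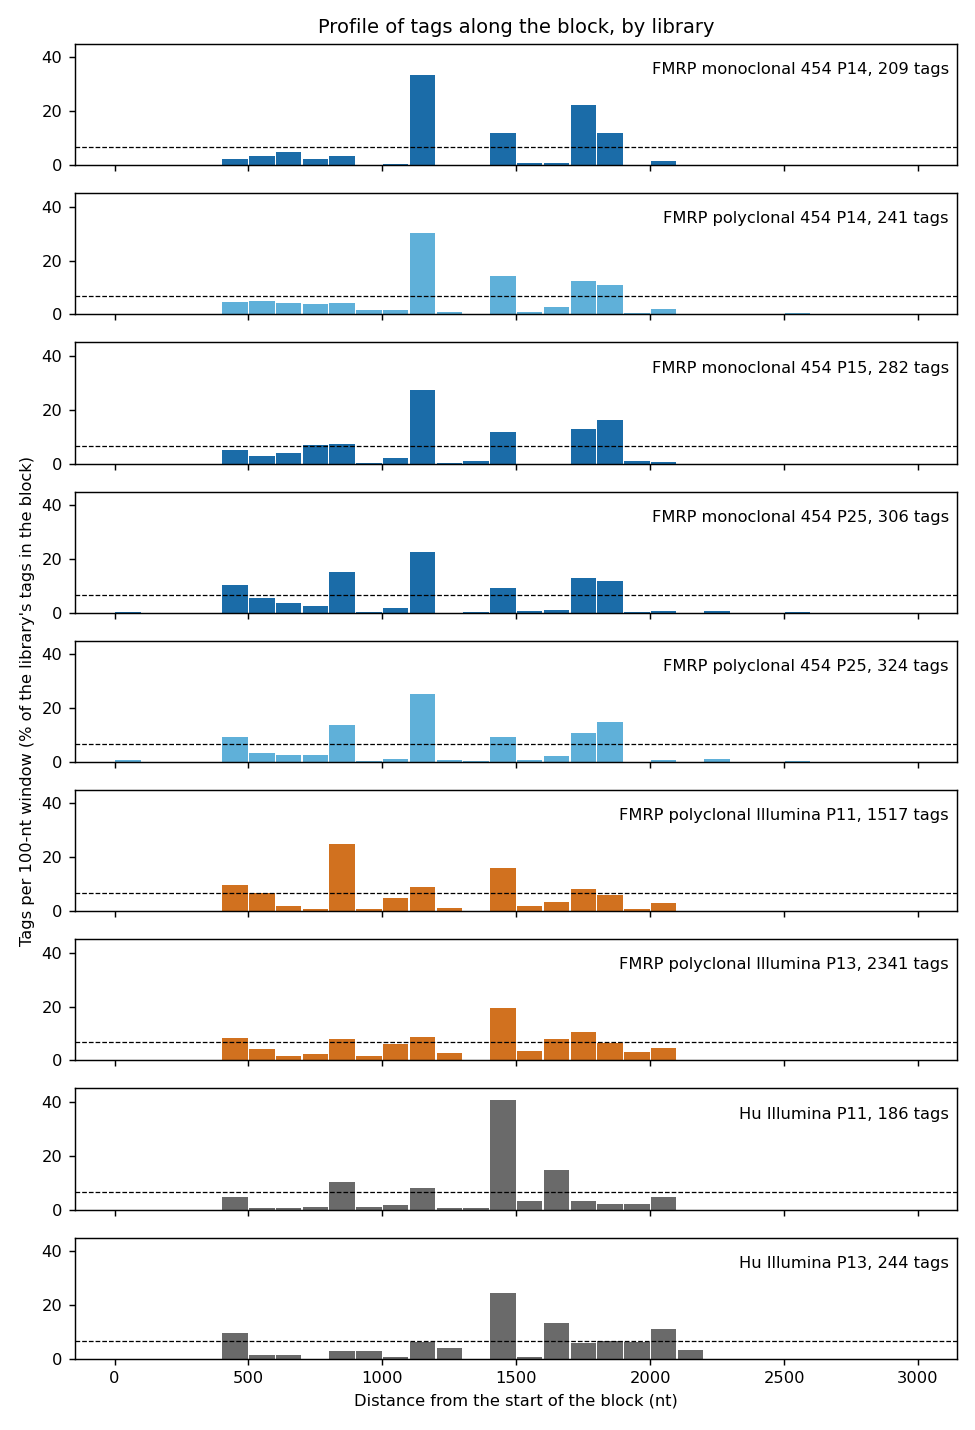
Tags per window of 100 nt, as a percentage of the library's tags in the block, against the distance from the start of the block, for the 9 libraries. The dashed line marks 2 times the mean window. The 454 libraries peak 1100 nt from the start, and the Hu libraries 1400 nt from it.

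The profiles of the 454 libraries were alike with either antibody. At P14 the 4 peak windows of the monoclonal library were the 4 of the polyclonal library, and at P25 all 6 peaks were shared. Pearson's r between profiles, over the 30 windows, was 0.965 for the antibodies at P14 and 0.983 at P25. Over the 6 pairs of libraries with different antibodies r ran from 0.880 to 0.983. Over the 4 pairs with the same antibody, which always differ in age and in read-name prefix, it ran from 0.866 to 0.941. The antibodies at P14 share such a prefix, as do those at P25, and its part in their likeness was not tested. These values describe windows of 1 stretch of RNA, some of them empty in every library, so they carry no p. In the fit of antibody on the 5 libraries of 454, the 2 windows of the block that had enough tags were at a log2 (polyclonal over monoclonal) of 0.12 (SE 0.50) and 0.06 (SE 0.10). Of 17 windows tested 0 were called in edgeR's quasi-likelihood fit (0 at an unadjusted p under 0.05), so 0% was called in the block and overall.

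The highest window differed between the 454 and Illumina libraries, which also differ in dissociation and age. The window 1100 nt in, chr17:39984101-39984200, held 33.5%, 27.3% and 22.5% of the block's tags in the monoclonal libraries at P14, P15 and P25, and 30.3% and 25.3% in the polyclonal ones at P14 and P25. On Illumina it held 9.03% and 8.59% with FMRP and 8.06% and 6.15% with Hu, at P11 and P13. All 5 values of 454 lay above all 4 of Illumina. On tags scaled to the library, with the polyclonal FMRP antibody alone, the log2 of Illumina over 454 was -2.01 (SE 0.31, adjusted p = 0.00431 in edgeR's quasi-likelihood fit, n = 2 libraries per protocol). It was -1.66 (SE 0.44, adjusted p = 0.00186 by the same edgeR test) with each library scaled to its own tags in the block. These windows of 100 nt were added after the data were seen, and 21.4% of the 56 tested were called (39.3% scaled to the block). The window 1800 nt in was the other one called, at -1.45 (SE 0.41, adjusted p = 0.0444 by edgeR's test), but not after scaling to the block (-1.05, adjusted p = 0.126 by edgeR's test). In windows of 1 kb, 40.0% of 85 windows were called between protocols and 0 of 3 in the block, where the log2 was 0.75 (SE 0.50), 0.23 (SE 0.35) and 1.15 (SE 0.95).

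Profiles of FMRP from different platforms and profiles of FMRP and Hu from the same platform gave overlapping ranges of likeness. Between 454 and Illumina libraries of FMRP, r over the 30 windows ran from 0.464 to 0.780, with a median of 0.653 over 10 pairs. Between FMRP and Hu on Illumina it ran from 0.531 to 0.859, with a median of 0.743 over 4 pairs. The medians were 0.617 and 0.625 in windows of 50 nt and 0.758 for both in windows of 200 nt. It was 0.792 for the FMRP pair on Illumina, 0.884 for the Hu pair, and 0.350 to 0.482 between 454 libraries and Hu. The P13 FMRP library was closer to both Hu libraries (0.852 and 0.859) than to the P11 FMRP library, but this order depended on the setting. The FMRP pair was at 0.955 with 1 tag per start position, 0.979 in rank correlation and 0.779 in windows of 50 nt. The highest value between FMRP and Hu was lower there, at 0.858, 0.951 and 0.747. It was higher in windows of 200 nt (0.889 against 0.810) and when tags were placed by their start (0.731 against 0.657). The order of these values is a description, and the difference between kinds of pair was not tested.

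**Figure D3:**
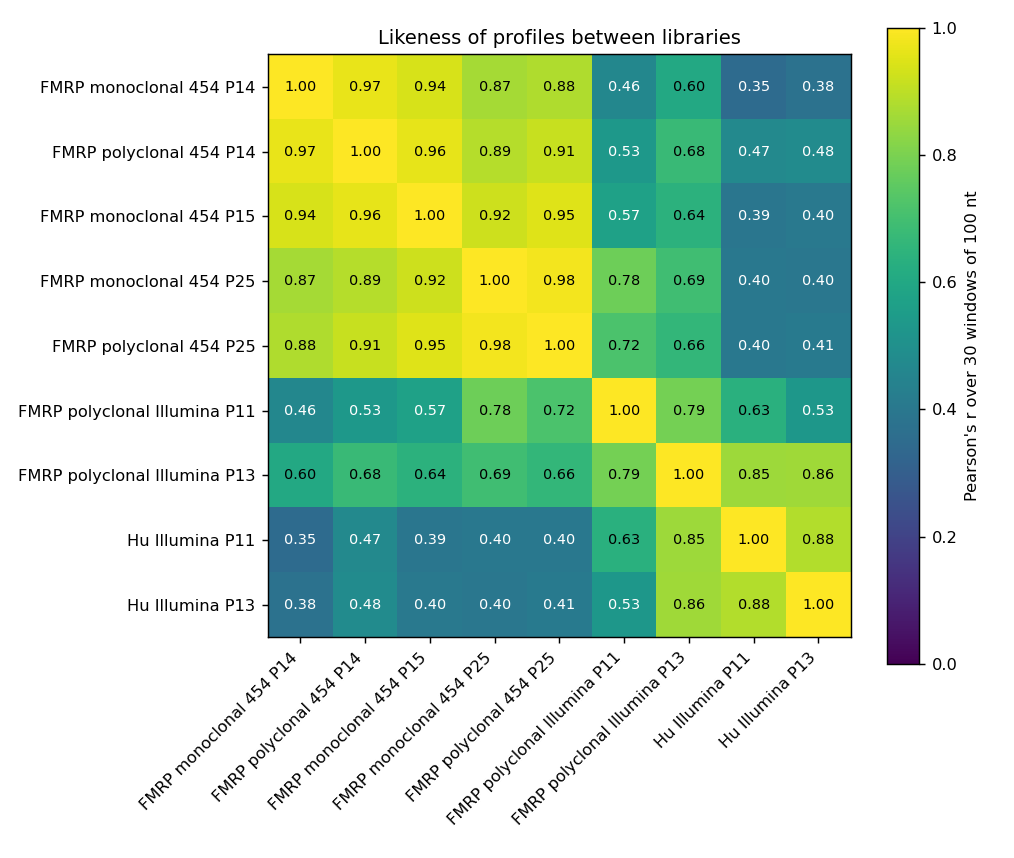
Pearson's r between the profiles of each pair of libraries over the 30 windows of 100 nt of the block, as colour and number. Pairs of 454 libraries lie between 0.866 and 0.983, and pairs of a 454 and a Hu library between 0.350 and 0.482.

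The difference between 454 and Illumina reached some single nucleotides. Tags of the 454 libraries ended at 39984164 in 19, 18 and 17 cases (monoclonal P14, P15 and P25) and in 20 and 20 (polyclonal P14 and P25). No Illumina tag below 71 nt, taken as the read limit, ended there. Tags of 454 started at 39984388 in 9, 8, 9, 9 and 7 cases in the same order, and on Illumina 2 FMRP tags and 0 Hu tags did. Illumina tags started at 39984423 in 34 and 67 cases with FMRP and in 14 and 10 with Hu, at P11 and P13, and 0 of 1362 tags of 454 in the block did. The first pair of positions was thus used mainly in the 454 libraries, with either antibody, and the last in the Illumina libraries, with either protein. Other positions served both. Tags of 454 started at 39984390 in 4, 6, 3, 5 and 3 cases, in the order above. On Illumina 24 and 77 FMRP tags and 0 and 1 Hu tags started there, at P11 and P13.

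Counted over all tags, 43 start positions were used in all 5 libraries of 454 and carried 47.2% to 65.1% of their tags in the block. The same 43 positions carried 5.67% and 7.86% of the FMRP tags and 3.23% and 2.05% of the Hu tags on Illumina. Conversely, 35 positions were used in all 4 Illumina libraries and carried 32.5% to 54.3% of their tags, but 4.25% to 8.16% of those on 454. The sets had 2 positions in common, 1124 and 1133 nt from the start of the block. Yet 34 of the 43 were used in any Illumina library, and 16 of the 35 in any library of 454. The sets thus differed in the share of tags they carried more than in whether they were used. Whole placements, with the same start and end, were shared between 454 libraries for 29.3% to 50.2% of either list. Between Illumina libraries of FMRP and of Hu the share was 6.00% to 51.3% of either list, and these lists differ in length. Pooled by platform, 30 placements were shared, 3.85% of the 779 on 454 and 1.82% of the 1648 on Illumina. Moving either end by up to 3 nt gave 14 to 59 shared placements, against 30 unmoved.

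Where FMRP and Hu were compared on the same platform, the ratio varied along the block. The window 1400 nt in, chr17:39984401-39984500, held 40.9% (95% Wilson interval 34.05 to 48.04) and 24.6% (19.6 to 30.4) of the Hu tags in the block at P11 and P13. It held 15.9% (14.1 to 17.8) and 19.4% (17.8 to 21.0) of the FMRP tags on Illumina, and 9.15% to 14.1% on 454. The window 1600 nt in held 14.5% and 13.1% of the Hu tags, 3.36% and 7.90% of the FMRP tags on Illumina, and 0% to 2.90% on 454. The window 2000 nt in held 4.84% and 11.1% with Hu and 3.03% and 4.74% with FMRP on Illumina, at P11 and P13. The window 500 nt in, named for its call below, stood on the other side: 6.79% and 4.31% with FMRP against 0.538% and 1.23% with Hu. The first 3 of these windows were higher with Hu in both lysates, and the last was higher with FMRP in both. Those 3 are the windows with the highest mean share in Hu, and the last was picked for its call. Their directions therefore follow in part from the choice and are a description.

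In the fit on windows of 100 nt, 16 windows of the block had enough tags out of 30, with log2 ratios of FMRP over Hu from 2.44 to 5.71. None was called in edgeR's quasi-likelihood fit, as in the whole fit (0%), and 8 of the 16, and 67 of the 280, had an unadjusted p under 0.05. With the lysate in the model as a replicate block, 7 of the 16 were called higher in FMRP against 4.29% of all windows, namely those starting 400, 500, 800, 1000, 1100, 1700 and 1800 nt into the block. The windows 1400, 1600 and 2000 nt in were not among them. These ratios to the library carry the total on which the block was chosen, so the calls are a description. Some windows had enough tags through FMRP alone. The window 500 nt in, chr17:39983501-39983600, had 103 and 101 FMRP tags but 1 and 3 Hu tags at P11 and P13, and that 1000 nt in had 77 and 145 against 3 and 2.

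Scaled to the tags of the block, which compares shapes alone, the ratios ran from -1.29 (SE 1.33) 1600 nt in to 2.59 (SE 1.46) 500 nt in, and 0 of 16 were called in edgeR's quasi-likelihood fit, 0 at an unadjusted p under 0.05. With the lysate in that model 1 was, the window 500 nt in, at 2.52 (adjusted p = 0.0369 by edgeR's test, with 1.07% of all windows called higher), a value that rests on the 1 and 3 Hu tags of that window. Under this scaling windows outside the block are shifted as a group (46.4% of the 280 were called, nearly all lower), so the share called overall does not serve as its background. With 2 libraries per protein, an exact permutation test could not give a two-sided p below 0.333.

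**Figure D4:**
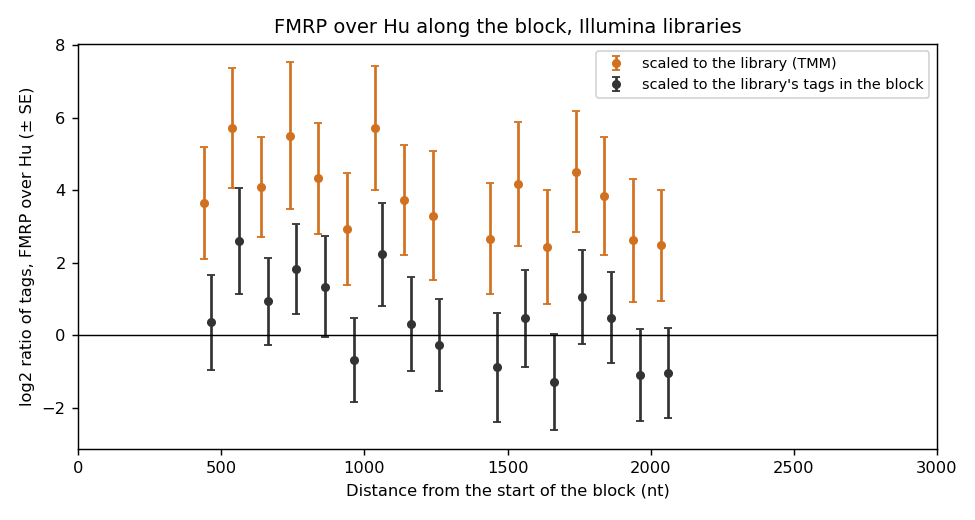
Ratio of FMRP over Hu tags on Illumina (log2, points, with SE as bars) for the 16 windows of 100 nt tested, against the distance from the start of the block, scaled to the library or to the library's tags in the block. All 16 ratios scaled to the library are above 0, and those scaled to the block lie on both sides of 0.

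In the 454 libraries the front of the block held a larger share at P25 than at P14 and P15. The first window of 1 kb held 37.9% and 32.4% of the block's tags at P25 (monoclonal and polyclonal), and 16.3%, 23.2% and 26.6% in the P14 monoclonal, P14 polyclonal and P15 monoclonal libraries. The P25 values lay above those of the other 454 libraries. On Illumina that window held 45.2% and 26.6% with FMRP and 18.3% and 17.6% with Hu, at P11 and P13. The highest share of all libraries was thus at P11. The window 400 nt in, chr17:39983401-39983500, held 10.5% and 9.26% at P25, 2.39% and 4.56% at P14 and 4.96% at P15. The window 800 nt in, chr17:39983801-39983900, held 15.03% and 13.6% at P25, 3.35% and 4.15% at P14 and 7.45% at P15.

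In the fit of age (P25 against P14 and P15, with antibody as a term) the first window of 1 kb was at a log2 of 0.90 (SE 0.26) and did not pass, with an adjusted p of 0.130 in edgeR's quasi-likelihood fit, while 11.8% of the 17 windows tested were called. The middle one was at -0.05 (SE 0.11). In windows of 100 nt, added after the data were seen, those 400 and 800 nt in were called at 1.57 (SE 0.33) and 1.83 (SE 0.35), where edgeR gave adjusted p of 0.0254 and 0.0210. Of 19 windows tested at that size 21.1% were called, and 2 of 8 in the block. Scaled to the block, neither passed (adjusted p = 0.100 and 0.0775 by edgeR's test, with 5.26% of windows called). Both P14 libraries share the read-name prefix EOFDU4J, both P25 libraries EKK6Q10, and the P15 library has EQOWPQR, so age and this prefix cannot be told apart.

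The same front window varied on Illumina between lysates of nearly the same age. The window 800 nt in held 24.8% (95% Wilson interval 22.7 to 27.0) of the FMRP tags in the block at P11 and 8.07% (7.04 to 9.25) at P13. With Hu it held 10.2% (6.64 to 15.4) and 2.87% (1.40 to 5.80). It was thus higher at P11 with both proteins, which came from the same divided lysates. In the P11 FMRP library 124 tags started at 39983829 and 101 at 39983816, against 34 and 27 at P13. Coverage was highest there, 844 nt from the start of the block, in this library alone: it was highest between 1144 and 1155 nt on 454, and between 1433 and 1462 nt in the other Illumina libraries.

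Tags of the P25 libraries also reached outside the main stretch. Of 1362 block tags on 454, 13 lay wholly outside the span of the Illumina tags, and 12 of these came from P25. Just inside the first bound lay 1 tag of the P25 monoclonal library and 3 of the P25 polyclonal one. In the 3 kb before the block these libraries had 9 and 18 tags on the same strand, and the other 7 libraries had 0. After the block, the next 3 kb held 0 tags in all 9 libraries, and so did the last 400 nt inside it.

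With every tag counted, block tags had a higher median length than the other tags of their library. Median lengths inside and outside were 39 and 35 nt, 37 and 36 nt, and 39 and 32 nt in the monoclonal libraries at P14, P15 and P25. They were 40 and 39 nt, and 39 and 31 nt, in the polyclonal 454 libraries at P14 and P25. On Illumina they were 52 and 46 nt, and 66 and 49 nt, with FMRP and 53 and 40 nt, and 60.5 and 46 nt, with Hu, at P11 and P13. The difference was 7.94 nt ± 5.78 (SD, n = 9), and it was above 0 in 9 of 9 libraries (exact sign-flip permutation test over libraries, two-sided p = 0.00390625, the smallest this test can give). That test takes the 9 libraries as independent, although the 4 Illumina libraries come from 2 divided lysates and 4 of the 454 libraries share a read-name prefix with another. Averaged over these shared sets, the difference was 7.25 nt ± 5.89 (SD, n = 5), above 0 in 5 of 5 (exact permutation p = 0.0625, the smallest that 5 values allow). With 1 tag kept per start position it was 4.56 nt ± 5.39 (SD, n = 9), above 0 in 7 of 9 libraries (exact permutation p = 0.0430), with -1 nt in the P14 polyclonal and -4 nt in the P15 monoclonal library. Length took no part in choosing the block.

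**Figure D5:**
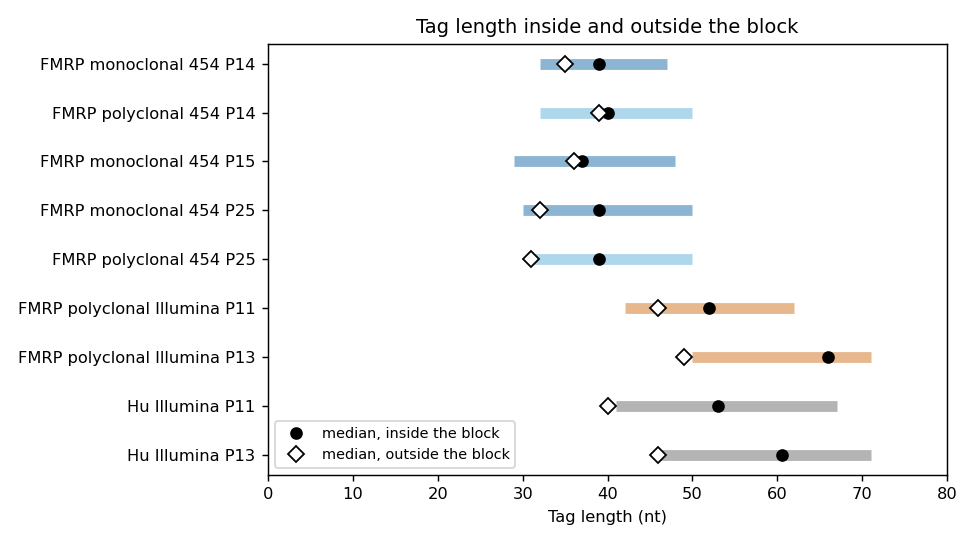
Median tag length in nt inside the block (filled circles, with the middle 50% of tags as a band) and outside it (open diamonds) for each library. The circle lies to the right of the diamond in all 9 libraries, by 1 to 17 nt.

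Against mitochondrial tags of the same library the difference was 0.944 nt ± 8.86 (SD, n = 9), above 0 in 5 of 9 libraries, and did not pass (p = 0.766 by the exact permutation test). The P14 monoclonal library had 1 such tag to compare with. The ends of the length range moved with the result. A length of 71 nt was taken as the Illumina read limit, and tags that reach it may stop before the RNA piece ends. Tags of 71 nt or more made up 10.1% and 46.4% of the block's FMRP tags on Illumina and 3.50% and 14.5% outside it, at P11 and P13. With Hu they were 19.9% and 37.3% inside and 1.23% and 10.8% outside. Tags under 20 nt were 1.44% to 4.58% inside and 8.27% to 14.99% outside on 454, and Illumina lists start at 28 nt. Among tags below 71 nt the difference was still above 0 in 9 of 9 libraries (4.89 nt ± 2.52, SD, exact permutation p = 0.00390625). Among tags of at least 28 nt it was above 0 in 7 of 9 (6.33 nt ± 6.80, SD, exact permutation p = 0.0234). That limit can change the 454 values alone. They were then -1, 0.5 and 4 nt (monoclonal P14, P15 and P25) and 0 and 3 nt (polyclonal P14 and P25), so the mean rests mostly on Illumina.

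Tags were stacked in the block. Illumina FMRP libraries had 5.09 and 5.07 tags per start position there, against 1.18 and 1.15 over all their tags, at P11 and P13. Hu libraries had 1.75 and 1.83 against 1.12 and 1.12, and 454 libraries 1.91 to 2.10 against 1.05 to 1.10. Tags per start position rise with the number of tags in a stretch, and the block was chosen on its totals. The excess, and the gap between FMRP and Hu, are therefore a description and not a separate trait. On 454 the tags also stood for more reads: 10.04 to 45.6 reads per block tag on average, against 3.71 to 20.6 outside. Counted in reads, the block took 4.06% to 7.98% of the 454 libraries.

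Transcripts of genes for the ribosome and its assembly held few tags. These lists were drawn from gene names and textbook membership, and a tag here lies on the gene's transcript. Of 89 genes of cytosolic ribosomal proteins, 30 had any transcript tag, and together they held 23 and 30 tags with FMRP and 21 and 29 with Hu on Illumina. Of 32 genes of ribosome biogenesis and RNA polymerase I, which makes ribosomal RNA, 27 had a tag, with 59 and 92 tags with FMRP and 31 and 46 with Hu. Of 78 genes of mitochondrial ribosomal proteins, 44 had a tag, with 19 and 30 tags with FMRP and 16 and 35 with Hu. None of these genes had enough tags for the test of FMRP against Hu, in which 60.3% of 1015 genes were called.

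The leading genes of these lists were lightly covered too. Ncl, which encodes the nucleolar protein nucleolin, had 13 FMRP and 24 Hu tags on Illumina. Rrn3, an initiation factor of RNA polymerase I, had 14 and 13, and Ubtf, which activates ribosomal RNA genes, had 9 and 13. Among ribosomal protein genes Rpl4 had 15 FMRP and 2 Hu tags, Rps15a had 1 and 17, and Rps3 had 5 and 8. Mrpl17 had 1 and 12, Mrpl57 had 3 and 6, and Mrpl10 had 3 and 2. The counts of these genes therefore do not allow a comparison with the block.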

How the data were processed

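HITS-CLIP tags of 9 libraries were analysed. The submitters' processing notes name Novoalign and build mm9, with no version. In the deposited 454 lists the value beside each tag is a count of merged reads, going by the values. In the deposited Illumina lists the value is a score whose meaning is not given, and it was left aside. Each line was counted as 1 tag, with its middle setting its window. The members and the gene lists were chosen with earlier results of these data known.

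Strand-specific windows aligned to the block were counted over the genome and tested with edgeR 4.0.16 in R 4.3.3 (TMM, filterByExpr, quasi-likelihood test, Benjamini-Hochberg adjustment at 0.05). FMRP against Hu used the 4 Illumina libraries, antibody and age the 5 libraries of 454, and protocol the 4 with the polyclonal FMRP antibody. The P11 and P13 lysates were each divided between FMRP and Hu per the series text, so the lysate pairs these libraries. The change from P11 to P13 had r = 0.633 between FMRP and Hu over 541 windows. Lengths were compared by an exact sign-flip test over libraries. Named windows are the 5 with the highest mean share, the 3 highest per group, and called windows. Transcript tags were summed to 11604 genes, of which 11397 have a name. On simulated counts with a log2 of 2, the FMRP against Hu test recovered 61.5% of changed windows of 1 kb (541 windows) and 58.6% of 100 nt (280 windows). A count of 0 allows up to 3 tags, 0.0403% of the smallest library. Alternatives used DESeq2 1.42.0, other scalings, filters and windows, 1 tag per start, reads, and each library left out. Tag lists were read with pandas 2.3.3 in Python 3.11.15, intervals came from scipy 1.17.1 and figures from matplotlib 3.10.9. Gene bounds on mm9 are from the authors' deposited table.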

Additional observations from a re-analysis of the deposited data

Results flagged for a closer look

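In the 3 kb before the block on the plus strand, outside the tags described above, the P25 monoclonal library had 9 tags and the P25 polyclonal library 18, standing for 43 and 332 reads. The 2 Hu libraries and the other 5 FMRP libraries had 0 there. In both P25 libraries the commonest end was 39981582, which lies 1419 nt before the block, with 3 of the 9 and 9 of the 18 tags. These libraries share a read-name prefix, whose part in this was not tested.

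The window 1400 nt into the block, chr17:39984401-39984500, moved in opposite directions between the lysates. With FMRP it held 15.9% of the block's tags at P11 and 19.4% at P13. With Hu it held 40.9% at P11 and 24.6% at P13. The counting intervals did not overlap within either protein, but with FMRP they nearly met (14.13 to 17.81 and 17.84 to 21.04). They take each tag as independent, although the 241 and 454 FMRP tags lay at 31 and 47 start positions. With 1 library of each kind, the difference was not tested.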

How the results depend on the processing

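Depth on 454 is low, with 209 to 324 tags in the block per library, and each group has 2 or 3 libraries. Tags that map to several places are not in the lists, and positions that hold none may be such places, which was not tested. The scaling set the size of the ratio of FMRP over Hu, but all 36 alternative values of the log2 in windows of 1 kb were above 0, from 0.34 to 5.43. The cause of the changes below was not tested.

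For FMRP against Hu in windows of 1 kb, the 0 called windows of the block moved with the setting, as did the share called of all windows. They became 2 with library totals (35.3% of all called), 2 in DESeq2's test (28.8%) and 2 with a platform term (68.1% of 47). They became 1 each with TMM outside the block (9.80%), 1 tag per start (34.8% of 362), or 3-kb windows (23.9% of 770). The range over libraries left out was 0 to 3, with 3 without the P11 FMRP library, 2 without the P13 one and 0 without either Hu library. Each of these fits has 1 library on one side, which is assumed to vary like the other protein's. Over all windows, the 51 calls became 191 with library totals, 156 in DESeq2's test, 0 without a filter, 126 with 1 tag per start, 20 in 500-nt windows, 184 in 3-kb windows, 32 with the platform term, and 0 to 292 without single libraries. DESeq2's size factors moved the median log2 of all windows from 0.09 to -0.73. With the lysate as a replicate block the 51 fell to 0.

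In windows of 100 nt, the 0 in the block became 7 with the lysate as a replicate block (29 over all windows), 1 with that pairing scaled to the block, 4 of 14 with 1 tag per start (18 over all), 13 of 24 in 50-nt windows (104 over all), and 0 to 16 without single libraries (0 to 202 over all). It was 16 without the P11 FMRP library and 3 without the P13 one.

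For age, the 0 in the block became 1 with DESeq2's size factors, 2 in 100-nt windows, and 0 to 1 without single libraries, the 1 being the first window without the P14 polyclonal or either P25 library. Over all windows the 2 became 5 without a filter, 0 with reads, 0 with a minimum of 5 tags, 4 in 100-nt windows, and 0 to 9 without single libraries. For protocol, the 0 in the block became 2 in 100-nt windows and 1 after scaling to the block. Over all windows the 34 became 0 without a filter, 14 with 1 tag per start, 12 in 100-nt windows, and 0 to 12 without single libraries. For antibody, 0 remained the count in the block and overall under all alternatives run, the replicate block by age included. The fit of antibody without a filter could not be made and was not run.

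The length difference was 0.944 nt against mitochondrial tags and 6.81 to 8.81 nt without single libraries. It was 7.25 nt over 5 sets of libraries, which cannot pass, and 4.56 nt with 1 tag per start. With 1 tag per start, the mean share was 1.38% (monoclonal) and 1.42% (polyclonal) on 454, and 0.791% (FMRP) and 0.176% (Hu) on Illumina. With reads it was 5.43% and 6.28% on 454. In rank correlation the median likeness of 454 and Illumina profiles of FMRP was 0.850. Without a filter, 1 of the 93 genes tested from the ribosomal lists was called, while 5.13% of all 10326 genes tested were. It was Baz2a, which represses ribosomal RNA genes, with 14 FMRP and 0 Hu tags.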
